A study of Homo sapiens with 2 samples.

Results

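The MYC network and the PVT1 locus were described here as 10 named genes, out of 38147 protein-coding and lncRNA genes of the annotation. They are the MYC family genes MYC, MYCN and MYCL, their dimerisation partner MAX, the MAX partners MXI1, MXD1, MXD4, MNT and MGA, and the lncRNA gene PVT1, the neighbour of MYC on chromosome 8. The genes were taken by name, and each peak whose midpoint lay in a gene or within 5 kb of either end was assigned to it. This gave 117 of the 78536 listed peaks, of which 68 belonged to PVT1. KDM1B, also called LSD2, is a flavin-dependent histone demethylase. Its sites were mapped by ChIP-seq (chromatin immunoprecipitation followed by sequencing) in the established triple-negative breast cancer line MDA-MB-231. The cells carried KDM1B with 3 FLAG tags stably expressed from the retroviral vector pOZ. Both groups came from these same cells: 1 library precipitated with the anti-FLAG M2 antibody, and 1 input library. The list holds peaks of ChIP over input from tagged cells, and chromatin precipitated from cells without the tag was not analysed here. A peak list carries no expression values, so the cell type was not checked against markers.

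MYC proteins are transcription factors of the basic helix-loop-helix leucine zipper class. They bind DNA as dimers with MAX, mainly at E-boxes (CANNTG, and above all the palindrome CACGTG), and they drive ribosome production, nucleotide synthesis and cell growth. The MXD proteins, MXI1 and MNT compete for MAX and recruit SIN3 and histone deacetylases, while MGA joins MAX in a repressive complex of the Polycomb group. PVT1 lies beside MYC in a region that is often gained in breast cancer, and it contains a series of small microRNA genes. Both MYC and PVT1 are transcribed towards higher coordinates, so that the lower end of each is its start.

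RefSeq start regions were at hand for every member except MYC and PVT1. Of these 8 members, 6 had a peak midpoint within 1 kb of a start listed in RefSeq (GRCh38.p14), namely MYCL, MXI1, MXD1, MXD4, MNT and MGA. The same held for 39.8% of 15811 protein-coding genes with a listed start. For 4 of these 6 genes the start region is printed below, from 250 bases before the start to 50 bases after it, 5′ to 3′, to show the E-box letters that lay under a KDM1B peak. Capitals mark CACGTG in MXD4 and MNT, and the wider form CANNTG in MYCL and MXD1, which had no CACGTG there. Every CACGTG is also a CANNTG, and both strands are covered because both patterns read the same on either strand.
MXD4, chr4:2262060-2262359, minus strand: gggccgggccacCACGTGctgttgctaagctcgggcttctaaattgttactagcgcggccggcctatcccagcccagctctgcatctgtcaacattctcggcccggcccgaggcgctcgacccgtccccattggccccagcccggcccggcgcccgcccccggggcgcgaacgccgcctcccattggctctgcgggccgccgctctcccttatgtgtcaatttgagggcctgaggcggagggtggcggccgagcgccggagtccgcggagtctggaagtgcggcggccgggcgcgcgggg
MNT, chr17:2401011-2401310, minus strand: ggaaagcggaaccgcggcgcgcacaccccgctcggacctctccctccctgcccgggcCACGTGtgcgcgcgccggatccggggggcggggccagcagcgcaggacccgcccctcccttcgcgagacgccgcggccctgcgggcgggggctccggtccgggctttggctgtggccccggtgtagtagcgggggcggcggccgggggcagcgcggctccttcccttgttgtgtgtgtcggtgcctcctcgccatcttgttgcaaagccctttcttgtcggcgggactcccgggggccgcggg
MYCL, chr1:39901868-39902167, minus strand: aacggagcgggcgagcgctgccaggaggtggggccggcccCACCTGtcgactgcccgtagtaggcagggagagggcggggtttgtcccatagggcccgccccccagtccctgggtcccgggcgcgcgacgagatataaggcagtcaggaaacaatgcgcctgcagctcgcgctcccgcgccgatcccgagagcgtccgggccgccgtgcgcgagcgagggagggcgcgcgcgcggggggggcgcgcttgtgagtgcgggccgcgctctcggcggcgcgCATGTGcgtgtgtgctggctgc
MXD1, chr2:69914859-69915158, plus strand: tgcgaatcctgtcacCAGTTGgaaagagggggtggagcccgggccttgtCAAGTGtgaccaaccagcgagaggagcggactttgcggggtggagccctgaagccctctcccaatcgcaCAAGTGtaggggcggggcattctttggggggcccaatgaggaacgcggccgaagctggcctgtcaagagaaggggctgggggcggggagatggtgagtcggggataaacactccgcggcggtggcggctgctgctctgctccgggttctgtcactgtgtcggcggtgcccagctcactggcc
The CACGTG began 238 bases before the start in MXD4 and 193 bases before it in MNT, and in both genes it lay under the peak. MYCL had CANNTG at 210 bases before and 29 bases after the start. MXD1 had it at 235, 201 and 132 bases before the start. All 5 of these matches also lay under peaks. MXI1 and MGA, whose start regions are not printed, each had an internal start region with all 300 bases under a peak and no CANNTG. A start region under a peak thus did not always hold an E-box. CACGTG is present in 7.27% of all 34961 start regions of this length and CANNTG in 68.7%. Among the 8398 start regions that a peak touched, 10.3% held CACGTG, against 6.32% of the others, and 57.6% held CANNTG, fewer than the 68.7% of all regions. These differences were not tested. A match is a description of the letters and not a measured site of MYC or MAX.

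KDM1B peaks were found at 9 of the 10 members, and MYCN, the family member best known from neuroblastoma, was the one without. Among the 9 protein-coding members 8 had a peak in the gene or within 5 kb, against 67.5% of all protein-coding genes, and 5 had one within 1 kb of either gene end, against 41.9%. With so few genes, these shares cannot be set apart from the background. PVT1 also had peaks in the gene and at a gene end. Among lncRNA genes, 32.4% had a peak in the gene or within 5 kb and 16.2% had one within 1 kb of either end. The value of each peak is the authors' log2 ratio of ChIP over input. The members' peaks had a median log2 ratio of 2.70, between 1.82 and 6.16, against 2.99 for the whole list (quartiles 2.58 and 3.52). Their median width was 822 bp, close to the 804 bp of all peaks. With 1 library in each group there is no replicate error, and no difference was tested. The read depth behind the ratios is unknown.

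**Figure D1:**
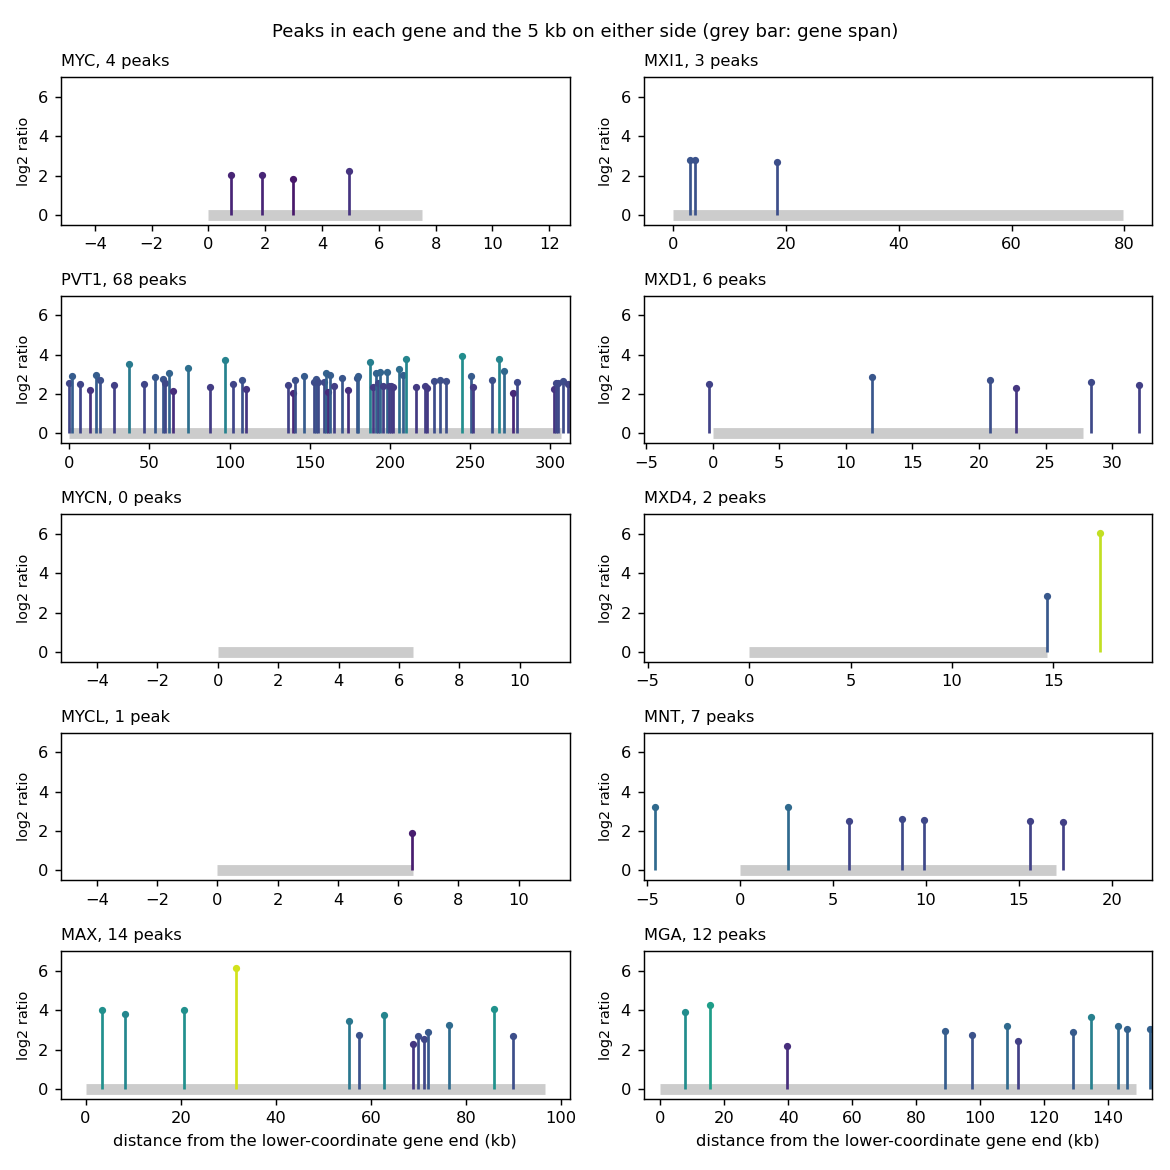
Position of every peak midpoint, as distance from the lower-coordinate gene end in kb, against its log2 ratio of ChIP over input, with 1 panel per gene and the gene span as a grey bar. PVT1 is filled with 68 peaks, MYC has 4 low ones, MYCN none, and the highest ratios stand in MAX (6.16) and beside MXD4 (6.05).

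MYC itself (chromosome 8, 127735434 to 127742951, hg38) carried 4 peaks, all inside its span of 7.52 kb. The first, at 127735622 to 127736827, had a log2 ratio of 2.02 and its midpoint 790.5 bp inside the lower end. The second, at 127736923 to 127737741, also had 2.02. The last pair, at 127737979 to 127738867 and 127739748 to 127741014, had 1.82 and 2.25. All 4 were therefore low within the list: only 0.795% of all listed peaks lay below the weakest and 8.42% below the strongest. In number and extent they were not at the bottom of the list. Having 4 or more peaks was common, at 34.0% of all protein-coding genes. The peaks covered 55.6% of the gene, and 7.28% of all protein-coding genes had 50% or more of their span covered. Of 5655 protein-coding genes under 10 kb, 546 had more peaks than MYC and 364, MYC included, had 4, and MYC ranked 391st by the share of its span under peaks. When peaks within 1 kb of each other were joined, the 4 became 1.

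The other family members had little. MYCL (chromosome 1, 39895428 to 39901917), the L-Myc gene, had 1 peak at 39901590 to 39902165 with a log2 ratio of 1.90, a value below which 1.32% of the list lay. Its midpoint was 39.5 bp downstream of the start, so the peak covered the start itself. MYCN (chromosome 2, 15940550 to 15947004) had no peak in the gene or within 10 kb, and the nearest peak midpoint, with a log2 ratio of 5.65, lay 306.5 kb upstream of its start. Of the protein-coding genes within a factor of 1.2 of its length, 56.8% had a peak. So the 3 MYC genes, which are alike in length, held 4, 1 and 0 peaks, and every peak in them had a ratio below the lower quartile of the list.

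PVT1 (chromosome 8, 127794524 to 128101256) held 68 peaks, the most of any of the 18177 lncRNA genes. The next were MIR100HG with 35, NCAL1 with 34 and MIR4435-2HG with 31, which are long lncRNA genes of 394.5, 282.4 and 299.3 kb, against 306.7 kb for PVT1. By density PVT1 also ranked first among the 987 lncRNA genes of 100 kb or more, with 21.5 peaks per 100 kb (exact Poisson 95% interval 16.7 to 27.2, counting error only). This lead was narrow: LOC124909489, of 123.0 kb, had 20.3 per 100 kb, inside that interval, and the shorter LOC101927741, of 81.3 kb, had 30.7. The median of these long lncRNA genes was 0 peaks, and 45.9% of them had any. Peaks covered 63.5 kb or 20.7% of its span, more than in any of the 119 lncRNA genes within a factor of 1.2 of its length. The first rank of PVT1 by count rested on the number of peaks and not on their height. Its median log2 ratio was 2.63, with a range of 2.05 to 3.94, and 54 of its 68 peaks lay below the median of the list. Among the stronger part of the list, peaks at or above the median ratio, PVT1 kept 14 and ranked 8th, where the highest lncRNA gene had 20.

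**Figure D2:**
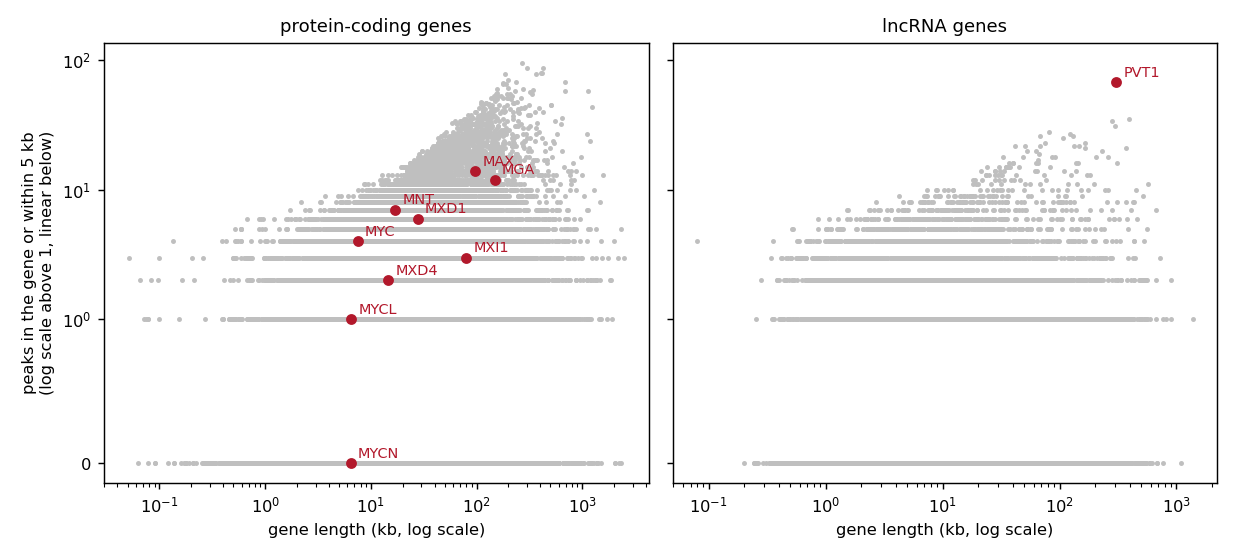
Each point is a gene, with its length in kb on a log axis and the number of peaks in the gene or within 5 kb on an axis that is logarithmic above 1 and linear below. The protein-coding members lie inside the cloud of all protein-coding genes, while PVT1, with 68 peaks, lies above all other lncRNA genes, of which the highest has 35.

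Inside PVT1 the peaks were spread over the whole gene with a dense middle. The start was marked by a peak at 127793755 to 127794932 (log2 ratio 2.54), whose midpoint was 180.5 bp outside the lower end. A wider one followed at 127795154 to 127797461 (2.93). Counted in parts of 50 kb from the lower end, the gene held 8, 8, 7, 20, 12 and 7 peaks, and the last 6.73 kb held 3. The stretch from 150 to 200 kb into the gene, was thus the densest of the full parts, with 40.8% of its bases under peaks against 10.6% to 24.8% in the other 5. The ratios did not follow this pattern: the median log2 ratio of the parts stayed between 2.53 and 2.82. The strongest peak, 3.94, was at 128038658 to 128039855 between 200 and 250 kb into the gene, followed by 3.78 at both 128004476 to 128005008 and 128062436 to 128062951. The weakest, 2.05, was at 127934062 to 127934626.

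Neighbouring peaks in PVT1 were separated by a median of 2440 bp, and 21 of the 67 gaps (31.3%) were 1 kb or less. The list as a whole had a median gap of 2556.5 bp with 32.2% of gaps at 1 kb or less, so the spacing within PVT1 was near that between neighbouring peaks anywhere. The longest stretches without a peak measured 25.04 kb, beginning 110.6 kb into the gene, and 22.1 kb, beginning 279.4 kb into it. Of the microRNA genes of the locus, MIR1204 (127795962 to 127796028), close to the start of PVT1, lay wholly under the peak with 2.93. MIR1205, MIR1206 and MIR1207 lay 413, 975 and 2539 bp from the nearest peak, and MIR1208, beyond the annotated end of PVT1, 4453 bp. The short lncRNA gene LINC02912, nested in PVT1, had 4 of the PVT1 peaks in its span or within 5 kb, 2 of them in the span. Peaks covered 75.4% of this gene.

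Over the 2 Mb around MYC and PVT1 (chromosome 8, 126918345 to 128918345) there were 98 peaks, or 4.90 per 100 kb (Poisson 95% interval 3.98 to 5.97). Chromosome 8 as a whole had 1.55 per 100 kb and all chromosomes together 2.59. PVT1 with its 5 kb flanks made up 15.8% of the window and 69.4% of its peaks (68 of 98, Clopper-Pearson 95% interval 59.3 to 78.3%). Outside MYC and PVT1 the window held 26 peaks at 1.56 per 100 kb (1.02 to 2.29), on average the level of the chromosome. PVT1 was 13.8 times as dense as this rest of its window. The rest was uneven. In it, 11 peaks lay in the 100 kb bin that begins 382.9 kb above the lower end of MYC, beyond PVT1. Of the 20 such bins of the window, 7 held no peak. Of 72 consecutive windows of 2 Mb on chromosome 8, with a median of 16.5 peaks, 4 held 98 or more, up to 163. Over all chromosomes 272 of 1506 such windows (18.1%) did. The window was thus peak-rich for chromosome 8, and many windows elsewhere held as much.

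**Figure D3:**
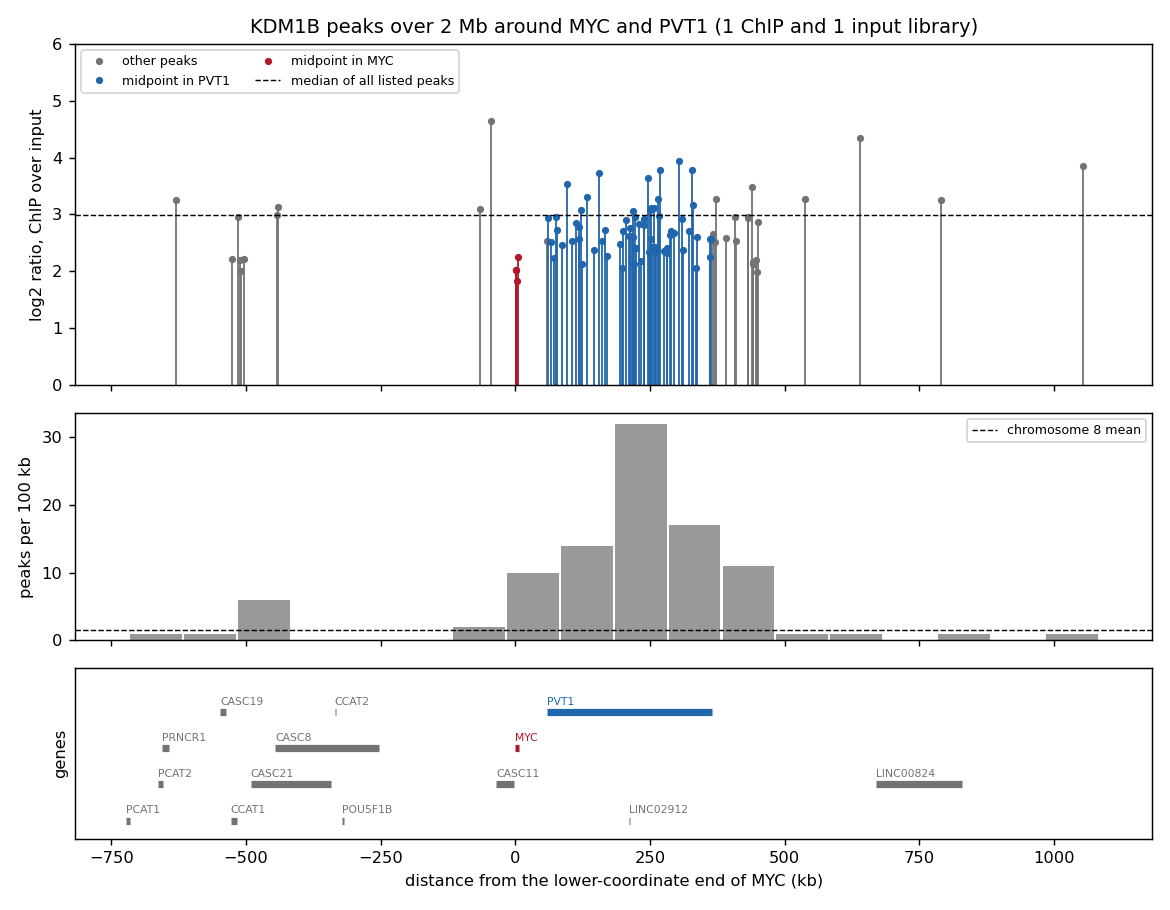
Top, log2 ratio of each peak over 2 Mb against the distance of its midpoint from the lower end of MYC in kb, middle, peaks per 100 kb with the mean of chromosome 8 (1.55) as a dashed line, and bottom, named genes (pseudogenes, microRNA genes and unnamed loci are left out). The peaks crowd over PVT1, up to 32 in 100 kb, while the MYC peaks are few and low. The rest of the window, at 1.56 per 100 kb, is on average near the chromosome mean, but 11 of its 26 peaks stand in the next bin above PVT1.

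The crowded stretch had no clear lower border. It was taken from the first MYC peak to 128186564, 85.3 kb beyond the upper end of PVT1. Its 450.9 kb held 84 of the 98 peaks. These limits were chosen after the values were seen. Within it, the 52.7 kb between the last MYC peak and the first PVT1 peak held none. This gap was longer than the 44.4 kb between the first MYC peak and the nearest peak below it. Beyond PVT1 the stretch held 14 further peaks, of which 2 were within 5 kb of PVT1 and counted with it, and 8 lay in the lncRNA locus LOC124902020 with log2 ratios of 1.99 to 3.49. Above it the next peak came after 86.6 kb, and only 4 single peaks followed, 1 of them in LINC00824 (3.25).

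Below MYC the window held 10 peaks, and a stretch of 374.7 kb had none. The nearest, at 127690748 to 127691248, lay 44.4 kb below the first MYC peak and had the highest log2 ratio of the window, 4.65. CASC11, the lncRNA gene next to MYC on that side, had no peak in its span, and its 3 peaks within 5 kb were the first 3 of MYC. A peak with 3.09 lay within 5 kb of LOC105375754. Further down, CASC21 and CASC8 overlap and shared the same 2 peaks (2.99 and 3.14). CCAT1 had 1 peak in its span (2.22) and another within 5 kb (2.96). PCAT1, PCAT2, PRNCR1, CASC19 and CCAT2, other lncRNA genes of the region, had none within 5 kb. POU5F1B, a retrogene of the POU5F1 family and the only protein-coding gene in the window besides MYC, had none either.

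MAX (chromosome 14, 65006101 to 65102695), the partner that all MYC and MXD proteins share, held 14 peaks and the highest ratio of the members. None lay near its listed starts: the closest peak, 65095693 to 65096388 with a log2 ratio of 2.67, had its midpoint 5643.5 bp downstream of the nearer start. The strongest, at 65037327 to 65038049, reached 6.16, which 99.9% of the list did not. The others ran from 2.30 to 4.05, and 8 of the 14 were above the median of the list. The gene overlaps FNTB, which encodes a farnesyltransferase subunit, and 5 of its peaks, the strongest included, lay in both genes. The 9 peaks outside FNTB had a median of 2.76 and a highest value of 4.05. The linear ratio of 3 MAX peaks, including the strongest, was a whole multiple of a step of 2.64 common to the list. Such values made up 12.4% of all peaks and 5.98% of the members' peaks. Ratios of this kind could arise with a single input read or with an input count that is a factor of the ChIP count. This was not tested, and the read numbers behind them are unknown.

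Among the repressive partners, MNT (chromosome 17, 2384073 to 2401060) was the most densely covered. It had 7 peaks, of which 5 lay in its span of 16.99 kb. Peaks covered 22.1% of that span, against a median of 4.33% for protein-coding genes of like length, of which 80.9% had fewer peaks. The peak at 2401112 to 2401728, with its midpoint 360 bp upstream of the start, had a log2 ratio of 2.45, and the CACGTG printed above lay under it. The other peaks had 2.49 to 3.21, and the most distant, 4602.5 bp beyond the far end of MNT, lay in the neighbour SGSM2.

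MXD1 (chromosome 2, 69915109 to 69942945), the gene of a MAX partner induced during differentiation, had 6 peaks with log2 ratios from 2.30 to 2.84, all below the median of the list. The widest, 69913880 to 69915737 with 2.50, lay over the start, and 4 of the others lay in ASPRV1, the gene of a skin protease that overlaps MXD1. Of these 4, 2 were inside MXD1 too and 2 were above its upper end. MXI1 (chromosome 10, 110207605 to 110287365) had 3 peaks between 2.67 and 2.79, and all lay in the first 20 kb of a gene of 79.8 kb. Its outermost start had no peak within 1 kb. Of its 2 internal starts, the lower had a peak midpoint 371 bp downstream (110210311 to 110210893, 2.79) and the upper one 67 bp downstream (110225542 to 110226584, 2.67). Protein-coding genes of like length had a median of 3 peaks for MXI1 and of 2 for MXD1.

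MXD4 (chromosome 4, 2247432 to 2262109) had 2 peaks, and both midpoints lay outside the annotated span. The first, 2261871 to 2262371 with a log2 ratio of 2.85, was centred 12 bp upstream of the start and covered all 300 bases of the region printed above. The second, 2264400 to 2265096, lay 2639 bp upstream of the start, had a ratio of 6.05 at a whole multiple of the step, and was also within 5 kb of the neighbour ZFYVE28. The body of MXD4 held no peak midpoint. MGA (chromosome 15, 41621224 to 41769940), a very large MAX partner with a second DNA-binding domain of the T-box type, had 12 peaks from 2.16 to 4.28. Of all protein-coding genes of 100 kb or more, 76.7% had at least 1. The weakest, at 41660452 to 41661372, sat 165 bp downstream of an internal start. The outermost start had none nearer than 7867.5 bp, and the strongest peak, at 41636510 to 41637013, lay between these 2 starts. The last peak, beyond the upper end, was in MAPKBP1.

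**Figure D4:**
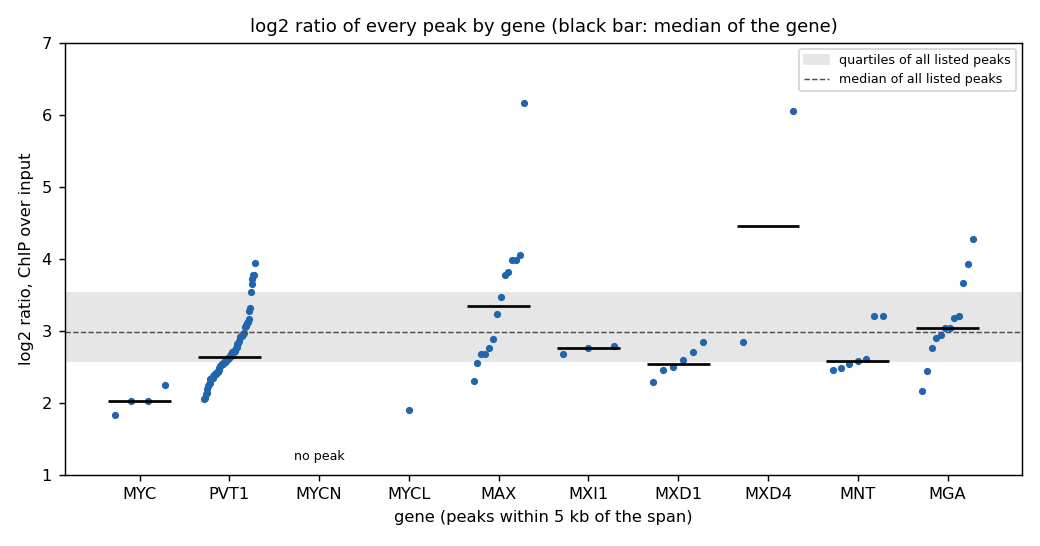
log2 ratio of ChIP over input of each peak, ordered by value within a gene, with the gene's median as a black bar, and the median (2.99) and quartiles (2.58 and 3.52) of the whole list in grey. The peaks of MYC and MYCL lie below the lower quartile, those of MXI1 and MXD1 below the median, and PVT1, MAX, MXD4 and MGA have peaks beyond the upper quartile.

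Pooled over the members outside chromosome 8, peaks at starts had a lower median ratio than the others. Of 45 peaks at the 8 members outside chromosome 8, 7 lay within 1 kb of a listed start, with log2 ratios from 1.90 to 2.85 and a median of 2.50. The other 38 had a median of 2.92. Of these, 14 were in MAX, which had no peak within 1 kb of a listed start, so the pooled medians mix gene and position. The lower ratio at starts did not hold in each gene: in MXI1 the strongest of 3 peaks (2.79) was at a start, and in MXD1 the start peak (2.50) was above 2 others. All 7 start peaks were below the median of the list. The same direction is known for the list as a whole, where 6414 peaks within 1 kb of a protein-coding start had a median of 2.61 and all others 3.01. With only the stronger part of the list, none of the 10 members kept a gene-end peak. Among all protein-coding genes 16.5% did. PVT1 and 4 of the 9 protein-coding members kept a peak in the gene or within 5 kb, and 55.7% of all protein-coding genes did. The linear ratios of the 7 start peaks ran from 3.73 in MYCL to 7.21 in MXD4. The highest single ratios inside MAX and MGA were 71.4 and 19.4. That of MAX was at a whole multiple of the step and also lay in FNTB.

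Other genes of the pathway were counted in 3 lists, taken by their role but with earlier results of these data known. Of 12 genes that act beside the MYC and MAX dimers, 11 had a peak in the gene or within 5 kb and 8 at a gene end, beside the 67.5% and 41.9% of all protein-coding genes. Their median was 4 peaks, against 2 for all protein-coding genes. MYCBP2, a large ubiquitin ligase gene, had 21 peaks and MLXIP, the gene of the glucose sensor MondoA, 20. MLX, the dimer partner of MondoA, had 9 peaks in the gene or within 5 kb, and 87.3% of its 6.10 kb lay under peaks. ZBTB17, which encodes the MYC-binding repressor partner MIZ1, had 11. At gene ends the lysosomal regulator TFE3 had the highest log2 ratio, 5.65, at a whole multiple of the step, followed by the E-box factor USF1 with 3.62 and MXD3, the remaining MXD family gene, with 3.21. MYCBPAP was the one gene without a peak.

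Of 32 genes of MYC cofactors and of factors that control MYC stability, 31 had a peak in the gene or within 5 kb and 25 at a gene end, beside 67.5% and 41.9% of all protein-coding genes. Their median was 9.5 peaks against 2, in genes that were also longer, with a median of 41.5 kb against 24.2 kb. TRRAP, the scaffold of histone acetyltransferase complexes that MYC recruits, had 44 peaks, and 71.6% of its 134.7 kb lay under peaks. EP400, of the TIP60 complex, had 37, and HUWE1 and USP37, a ubiquitin ligase and a deubiquitinase that act on MYC, had 36 each. The corepressor scaffolds of the MXD proteins, SIN3A and SIN3B, had 25 and 24. The ubiquitin ligase gene FBXW7, which marks MYC for degradation, had 1 peak in 215.5 kb, at a gene end, with a log2 ratio of 3.07. GSK3B, the kinase that primes this step, had 2 in 273.1 kb. FBXW7 and GSK3B were chosen after their values were seen. At gene ends HUWE1 had 5.65, at a whole multiple of the step, TRRAP 4.34, WDR5 4.09 and KAT2A 3.57. The histone deacetylase gene HDAC2 had no peak, while its paralog HDAC1 had 16.

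All 34 classical MYC target genes had a peak in the gene or within 5 kb (100%, Clopper-Pearson 95% interval 89.7 to 100%), and 30 (88.2%, 72.5 to 96.7%) had one at a gene end, against 67.5% and 41.9% of all protein-coding genes. Their median was 6.5 peaks, against 2 for all protein-coding genes, although at a median of 11.4 kb they were shorter than these (24.2 kb). WDR43 had 21 peaks, BOP1 17 and POLR1B 16, all genes of ribosome biogenesis. ODC1, the rate-limiting enzyme of polyamine synthesis, had 8 peaks with a median log2 ratio of 2.21, and 94.5% of its span lay under peaks. NME1, a nucleoside diphosphate kinase, had 9 peaks with a median of 2.70, and 83.2% of its span lay under peaks. At gene ends the replication helicase gene MCM7 had 4.42, DKC1, the gene of dyskerin, 3.84, and the amino acid transporter gene SLC7A5 3.74. In CCND2, the cyclin D2 gene, 1 peak (3.03) was counted, and it did not reach the span itself. ODC1, NME1 and CCND2 were chosen after their values were seen. Many genes of these lists are active in most dividing cells, though their expression was not measured here. Whether the shares differ from those of other such genes was not tested. The intervals cover counting error only, and the list was chosen with earlier results of these data known.

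**Figure D5:**
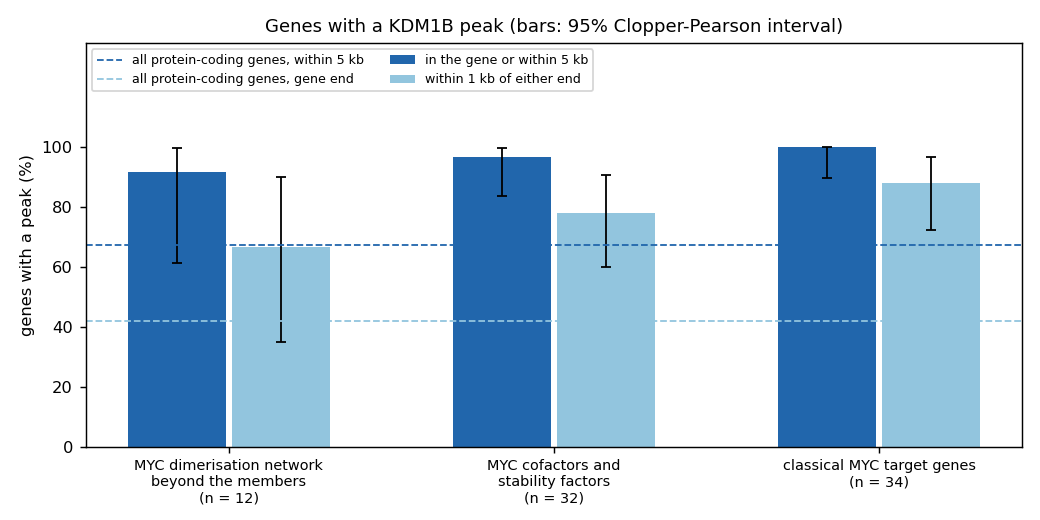
Share of genes in each of 3 lists with a peak in the gene or within 5 kb (dark bars) and within 1 kb of either end (light bars), in percent, with 95% Clopper-Pearson intervals that cover counting error only. Dashed lines give the shares of all 19970 protein-coding genes, 67.5% and 41.9%, and the target list stands at 100% and 88.2%.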

How the data were processed

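The submitters' processing notes name Trim Galore 0.4.5, Bowtie2 2.2.9 and the build hg38. How peaks were called, thresholded, scaled and joined was not given in the sources used here. For each peak the authors deposited its position and 1 log2 ratio, ChIP against input, with neither counts nor p-values. That the values are log2 ratios was read from the values. Whether starts count from 0 or 1 is not stated, and coordinates are printed as deposited. No peaks overlapped.

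Genes came from RefSeq spans (GRCh38.p14, chromosomes 1 to 22 and X). Starts, strands and sequences came from a RefSeq table of start regions, which matched 8 of the 10 members, with 13 starts. No sequence of MYC or PVT1 is shown. Genes of like length are those of the same biotype within a factor of 1.2. The step of 2.64 was found by dividing a linear ratio of the list by rising whole numbers. The number 34 was the smallest with which over 95% of the top 1% of ratios were whole multiples (97.7%, tolerance 1e-05). Intervals are exact at 95%. Peak placement was checked on simulated data, with Python 3.11.15, numpy 2.4.6, pandas 2.3.3 and scipy 1.17.1. The members and gene lists were chosen with earlier results of these data known. Named genes were all members, the genes of the 2 Mb window, and from each list up to 6 genes by number of peaks, up to 4 by their strongest gene-end peak and those without a peak. Alternatives varied the distance, the overlap rule, the window, the strength and the joining of peaks.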

Additional observations from a re-analysis of the deposited data

How the results depend on the processing

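The counts of members and list genes with a peak, of member, PVT1, MYC and window peaks, the members' median ratio, the rank of PVT1 and the window's covered share were recomputed under other rules of assignment, and 55 of 68 recomputed values stayed within 1.5 times the reported count or share, or within the 95% interval of the reported median (2.61 to 2.79). That interval treats the 117 member peaks as independent, though 68 came from PVT1, and it covers no error between libraries. The largest moves came with only the 39311 stronger peaks. They left 5 members with a peak and 32 assigned peaks at a median log2 ratio of 3.51, 0 members with a gene-end peak, and 25 peaks over 1.02% of the 2 Mb window. Its covered share of 4.51% became 8.28% in a window of 1 Mb and 2.65% in one of 4 Mb, since most peaks lie near its centre. PVT1 kept its first rank with the gene span alone (65 peaks), without whole multiples of the step (65) and with peaks within 1 kb joined (47 against 28 for the next lncRNA gene). These checks on PVT1 and MYC, and those on starts, were added after the data were seen. No paired analysis was possible because each group held 1 library, and for the same reason no library could be left out. Without read counts, the depth behind single ratios is unknown.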
